A study of Mus musculus with 12 samples.

Results

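The genes described here are 10 core genes of thermogenic (heat-producing) adipocytes: Ucp1, Dio2, Ppargc1a, Ppargc1b, Prdm16, Cidea, Elovl3, Otop1, Letmd1 and Ebf2. They were chosen by name, as Ucp1 and regulators or markers of brown and beige fat cells, with earlier results of these data known. All 10 were found among the 27179 gene identifiers that the adult and aged count tables share. Messenger RNA was sequenced from adipose tissue of C57BL/6J mice of wild-type genotype (WT) in 12 libraries, 3 each from untreated adult mice (Adult control), adult mice after a scald burn (Adult burn), untreated aged mice (Aged control) and aged mice after a scald burn (Aged burn), all labelled day 7. Burned mice were immersed in water at 98 °C, 10 s on the back in both ages and 2 s more on the belly in adults, which gave burns of 30% of the body surface in adult mice and 20% in aged mice. Buprenorphine was the pain relief named in the protocol. Depot, sex and ages are not given in the sources used. The labels do not state that each library came from a separate mouse, so a p-value here measures library-to-library spread, which may be technical. Age goes with the deposited table and, among burned mice, with burn size, and these cannot be told apart.

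Thermogenic adipocytes burn fuel to make heat. Ucp1 lets protons leak back across the inner mitochondrial membrane so that respiration runs without making ATP, and noradrenaline from sympathetic nerves is the classic trigger for its transcription. Dio2 converts thyroxine into active thyroid hormone inside the cell, which adds to that signal. Ppargc1a and Ppargc1b are coactivators that drive mitochondrial gene programs, while Prdm16 and Ebf2 specify and maintain the brown and beige fate. Cidea acts in lipid droplet fusion and is widely used as a brown fat marker, Elovl3 elongates very long chain fatty acids and is strongly induced by cold in brown fat, Otop1 is a proton channel, and Letmd1 is a mitochondrial protein needed for brown fat thermogenesis. In white depots these genes mark beige cells, which are known to be recruited by cold and after severe burns.

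The upstream sequences of Ucp1, Dio2 and Ppargc1a are shown because Ucp1 and Dio2 were the members whose rise passed the test at both ages and Ppargc1a was one that fell in aged mice, and because the known trigger acts through cyclic AMP. Each is the run of 250 bases before the gene's start in RefSeq (GRCm38.p6), 5′ to 3′ on the gene's own strand, with motif matches in capitals. Ucp1 lies on the plus strand (chr8:83290098-83290347), Dio2 on the minus strand (chr12:90739039-90739288) and Ppargc1a on the minus strand (chr5:51567726-51567975).
Ucp1: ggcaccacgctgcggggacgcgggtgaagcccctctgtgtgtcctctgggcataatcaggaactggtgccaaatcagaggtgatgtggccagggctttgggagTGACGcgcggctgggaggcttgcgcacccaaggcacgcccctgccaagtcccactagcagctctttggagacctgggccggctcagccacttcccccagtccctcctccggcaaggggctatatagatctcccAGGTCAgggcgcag
Dio2: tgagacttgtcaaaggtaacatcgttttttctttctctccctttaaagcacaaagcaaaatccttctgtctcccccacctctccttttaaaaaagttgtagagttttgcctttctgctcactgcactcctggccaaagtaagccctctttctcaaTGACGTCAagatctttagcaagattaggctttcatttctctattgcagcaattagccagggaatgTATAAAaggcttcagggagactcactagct
Ppargc1a: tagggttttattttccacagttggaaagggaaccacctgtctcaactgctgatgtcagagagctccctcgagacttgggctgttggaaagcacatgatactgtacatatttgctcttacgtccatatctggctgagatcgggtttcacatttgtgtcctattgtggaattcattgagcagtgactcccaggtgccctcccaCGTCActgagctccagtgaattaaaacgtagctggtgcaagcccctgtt
The Dio2 window holds the full cyclic AMP response element TGACGTCA at bases 95 to 88 before the start and a TATAAA box at bases 30 to 25. The Ucp1 window holds the half-site TGACG at bases 147 to 143 and the nuclear receptor half-site AGGTCA at bases 14 to 9. In Ppargc1a the half-site TGACG lies on the opposite strand, at bases 49 to 45, and is printed as CGTCA. Searched on both strands, TGACGTCA was in 1.55% of 32851 upstream windows of this length, TGACG (which TGACGTCA contains) in 17.8%, AGGTCA in 14% and TATAAA in 12.4%. RefSeq windows were matched for 6 members. Those of Prdm16 and Otop1 held none of these motifs, and that of Letmd1 held AGGTCA at bases 201 to 196. A match describes the sequence only.

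Libraries held 25231506 to 32236330 counts in adult and 31846557 to 46531070 in aged mice. Levels are CPM (counts scaled to library size), corrected over the 12 libraries by TMM, which assumes that most genes do not differ. The tissue label was checked against 16 adipocyte genes, all above 0 in every library. Their summed level was 51995 to 57748 CPM in 8 of the 9 libraries outside the Aged burn group, 24126 CPM in Adult control 1, and 34008, 13973 and 38149 CPM in Aged burn 1, 2 and 3. The sum of 12 macrophage genes was 3820 to 17600 CPM in burned aged mice against 556 to 1040 CPM in aged controls. Adult control 1 carried 2309 CPM of 15 lymphocyte genes, against 17.6 and 24.5 CPM in the other adult controls, and Adult burn 1 carried 4156 CPM of 16 skeletal muscle genes, against 23.3 and 91.1 CPM. The part of these other cells in the results below was not tested, other than by leaving libraries out. In bulk tissue, fewer thermogenic cells and less RNA per cell cannot be told apart. Members were also tested with libraries scaled to equal levels of the 16 adipocyte genes, here called adipocyte scaling. It expresses members relative to those genes and does not tell fewer cells from less RNA per cell. Whether the level of the 16 genes per adipocyte differed between groups was not tested.

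Ucp1 (Entrez 22227, chr8:83290352-83298452 in GENCODE M21 on mm10, as for the positions below) had the largest called fold change of the 10 at both ages with all libraries in. It was at 11.6, 12.7 and 22.9 CPM in the 3 adult controls and at 1189, 1046 and 1015 CPM in the 3 burned adults, means of 15.7 ± 6.22 and 1083 ± 92.9 CPM (SD, n = 3). The burned adult libraries lay close together and far above every control. In aged controls Ucp1 was at 0, 0.349 and 0.48 CPM (0, 16 and 22 reads) and in burned aged mice at 30.5, 7.94 and 11.8 CPM (1209, 305 and 424 reads). The count of 0 in Aged control 1 allows up to 0.0863 CPM (3 reads). The aged groups did not overlap either, and the burned aged libraries overlapped the untreated adults.

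The Ucp1 rise passed the test at both ages, from very different floors. The mean was 68.9-fold higher after burn in adults (log2 fold change 6.10 ± 0.37 SE, edgeR quasi-likelihood test with Benjamini-Hochberg adjustment over all genes, adjusted p = 0.016). In aged mice the log2 fold change was 5.85 ± 0.99 SE (edgeR adjusted p = 0.0141), and the ratio of pooled reads, 1938 against 38, was 56.6 with a 95% counting interval of 41.1 to 80.3. Aged burn 1 held 1209 of the 1938 reads, and without it the ratio was 32.7 (23.6 to 46.5) and the log2 fold change 5.10 (edgeR adjusted p = 0.0494). Without Aged control 3 the log2 fold change was 6.44 and not called (adjusted p = 0.0709). The difference between the 2 responses was -0.27 ± 1.0 on the log2 scale (edgeR adjusted p = 0.867), an error too wide to show that they were alike. The groups themselves stood far apart: the mean was 56.9-fold lower in aged than in adult controls (log2 -5.74 ± 0.78 SE, edgeR adjusted p = 0.0245) and 64.6-fold lower in burned aged than in burned adult mice (log2 -6.01 ± 0.73 SE, edgeR adjusted p = 0.0015). Those 2 values were -6.34 without Aged control 3 (not called, adjusted p = 0.148) and -6.77 without Aged burn 1 (adjusted p = 0.00645).

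Dio2 (Entrez 13371, chr12:90724552-90738438) also rose at both ages, but by less in the aged. It was at 2.64, 2.84 and 1.85 CPM in adult controls and at 26.6, 32.4 and 34.8 CPM in burned adults, a 12.8-fold higher mean (log2 3.66 ± 0.24 SE, edgeR adjusted p = 0.016). Aged controls were at 0.748, 0.458 and 0.808 CPM and burned aged mice at 1.39, 2.6 and 2.37 CPM, a 3.16-fold higher mean (log2 1.66 ± 0.38 SE, edgeR adjusted p = 0.0338). Neither pair of groups overlapped, and the burned aged libraries overlapped the untreated adults. The aged response was smaller (difference -2.01 ± 0.42 on the log2 scale, edgeR adjusted p = 0.0208). With adipocyte scaling that difference turned to 0.05 (edgeR adjusted p = 0.956), while the aged rise itself was larger, at 3.21 (adjusted p = 0.0175). Adipocyte scaling raised Dio2 of Aged burn 2 to 10.1 CPM, against 1.96 and 2.42 CPM in the other burned aged libraries. Dio2 shares 100 exon bases with Gm26512 on the opposite strand, and the strand setting of the counting is not given.

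Cidea ended far apart at the 2 ages after burn. It was at 58, 84.4 and 166 CPM in adult controls and at 565, 376 and 532 CPM in burned adults. In aged mice it went the other way, from 25.9, 29.9 and 20.7 CPM in controls to 9.04, 4.25 and 13 CPM after burn. None of these 4 groups overlapped another. The adult difference, 4.77-fold in the means, did not pass the test (log2 2.25 ± 0.42 SE, edgeR adjusted p = 0.651), and the aged fall did (log2 -1.54 ± 0.40 SE, edgeR adjusted p = 0.0453). By the same test the unadjusted p was 0.00126 in adults and 0.00694 in aged mice. The adjustment runs over all genes of each fit, so a call at 1 age only does not rank the 2 responses. With adipocyte scaling the aged value was -0.43 (adjusted p = 0.458), and the aged libraries overlapped. Burned aged mice were 56-fold below burned adults (log2 -5.81 ± 0.52 SE, edgeR adjusted p = 0.000881). The responses differed by -3.79 ± 0.62 (edgeR adjusted p = 0.017), and by -2.31 with adipocyte scaling (adjusted p = 0.0156).

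Elovl3 (Entrez 12686, chr19:46131897-46135694) was close to silent in aged controls. In adults it was at 0.311, 0.451 and 6.685 CPM in controls and at 62.2, 41.0 and 37.2 CPM after burn, with Adult control 3 well above the other controls. The adult difference did not pass the test (log2 4.26 ± 1.18 SE, edgeR adjusted p = 0.788), and it did without Adult control 3 (log2 6.93, adjusted p = 0.0261). Each aged control held 1 read of Elovl3, and the burned aged libraries held 40, 4 and 22 reads (1.01, 0.104 and 0.615 CPM), a pooled ratio of 24.4 with a 95% counting interval of 8 to 121. It was too sparse in aged mice for the count filter, and its aged value rested on other settings. It was called with all genes of at least 1 read (log2 4.42, edgeR adjusted p = 0.0315), by DESeq2 (4.58, adjusted p = 0.00176) and without Aged burn 2 (4.93, edgeR adjusted p = 0.00228). It was not called in the fit on all 12 libraries (4.40, edgeR adjusted p = 0.0728) or on leaving out any 1 aged control (4.34 to 4.52, adjusted p = 0.116 to 0.13). Pooled over controls, 199 reads in adults and 3 in the aged gave a ratio of 87.7 (95% counting interval 29.6 to 429). Of the 199, 173 were from Adult control 3, and without it the ratio was 15.7 (4.81 to 81.1). The test between controls missed the threshold (log2 -6.48, edgeR adjusted p = 0.0724), also without Adult control 3 (-3.80, adjusted p = 0.0971), and passed without Adult control 2 (-6.97, adjusted p = 0.025). After burn, aged mice were lower (log2 -6.33 ± 1.17 SE, edgeR adjusted p = 0.00553, and -7.02 without Aged burn 1).

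Otop1 (Entrez 21906, chr5:38275972-38304217) followed the order of Cidea. Adult controls were at 22, 33.8 and 10 CPM and burned adults at 109, 58.9 and 87.9 CPM, apart but not called (log2 1.95 ± 0.46 SE, edgeR adjusted p = 0.788). Aged controls were at 9.7, 7.7 and 8.32 CPM and burned aged mice at 4.62, 3.05 and 5.25 CPM, all lower (log2 -0.99 ± 0.25 SE, edgeR adjusted p = 0.0444). The aged fall turned to 0.28 with adipocyte scaling and was not called in the fit on all 12 libraries (adjusted p = 0.0937). The responses differed by -2.95 ± 0.55 (edgeR adjusted p = 0.0172), which adipocyte scaling lowered to -1.20 (adjusted p = 0.154).

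Letmd1 (Entrez 68614, chr15:100469023-100479164) had a smaller burn response in the aged. It was at 50.1, 63.1 and 57.9 CPM in adult controls and at 189, 140 and 147 CPM in burned adults (log2 1.47 ± 0.17 SE, edgeR adjusted p = 0.106), a difference that was called in the fit on all 12 libraries (adjusted p = 0.018). In the aged it was at 41.7, 49.4 and 36.3 CPM in controls and at 44.2, 29.5 and 42.6 CPM after burn, groups that overlapped (log2 -0.13 ± 0.20 SE, edgeR adjusted p = 0.637). The responses differed by -1.61 ± 0.27 (edgeR adjusted p = 0.017). With adipocyte scaling the difference was 0.20 (adjusted p = 0.762).

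**Figure D1:**
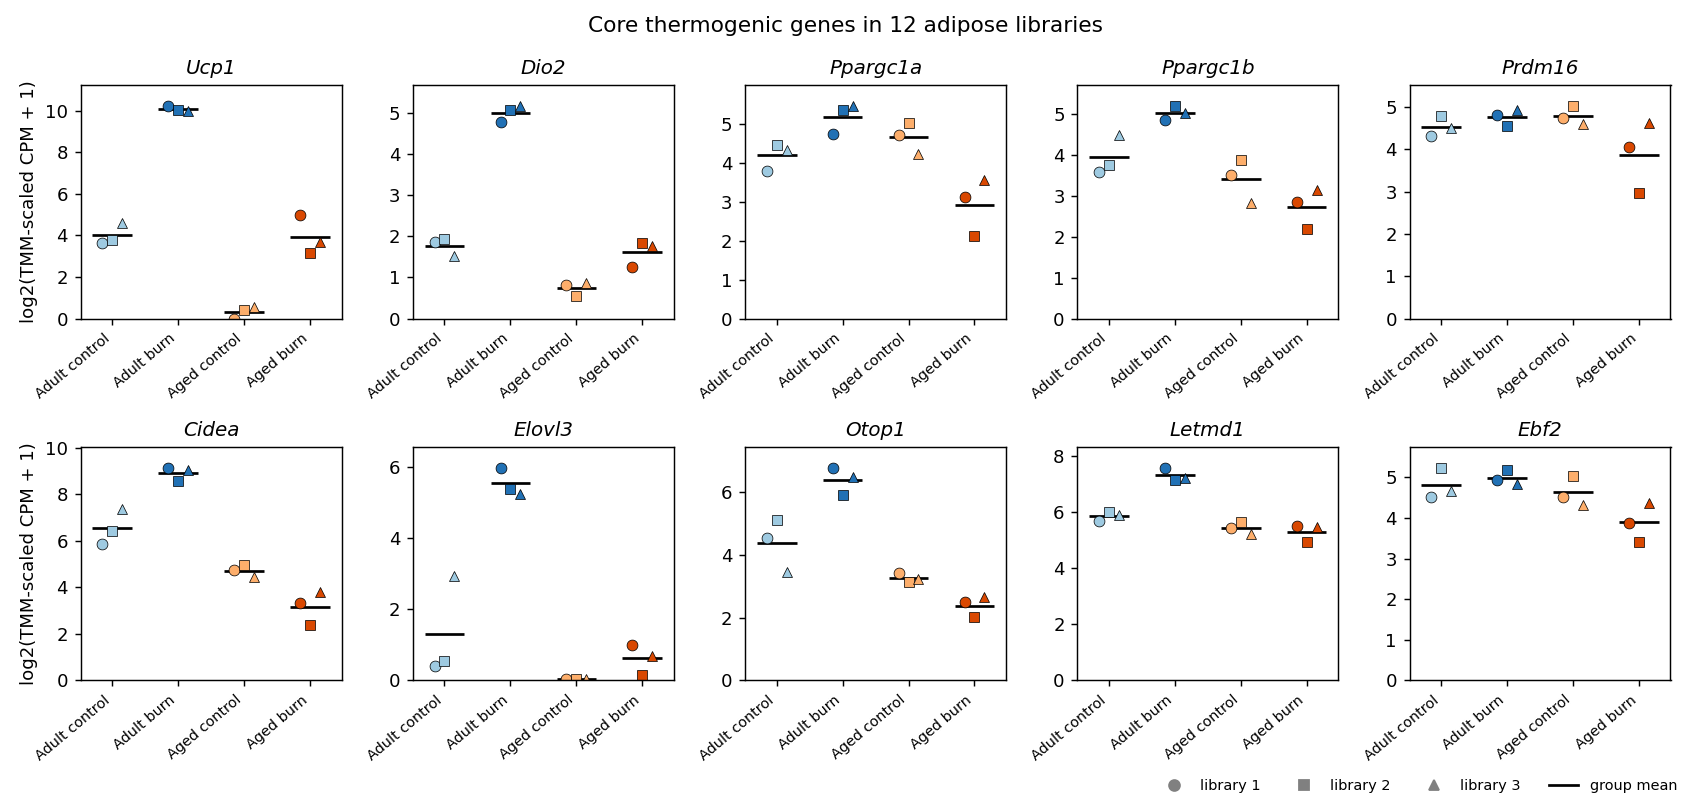
Level of each of the 10 genes in every library, as log2(TMM-scaled CPM + 1) on the vertical axis, by group on the horizontal axis. Circles, squares and triangles are libraries 1, 2 and 3 of a group and the bar is the group mean. Ucp1, Dio2, Cidea, Elovl3, Otop1, Letmd1 and Ppargc1b were highest in burned adults, with no overlap with any other group, whereas Prdm16 and Ebf2 stayed within 6.77 to 36.6 CPM throughout.

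Both coactivators had a lower burn response in the aged. Ppargc1a (Entrez 19017, chr5:51454250-51567726) was at 12.8, 21.0 and 19.0 CPM in adult controls and at 25.8, 39.5 and 42.7 CPM after burn (log2 1.03 ± 0.27 SE, edgeR adjusted p = 0.788). Aged controls were at 25.1, 31.5 and 17.8 CPM and burned aged mice at 7.7, 3.31 and 10.7 CPM, a 3.43-fold lower mean (log2 -1.78 ± 0.44 SE, edgeR adjusted p = 0.0415). Untreated aged mice overlapped both adult groups (aged minus adult controls, log2 0.50, edgeR adjusted p = 0.429). With adipocyte scaling the aged fall was -0.68 (adjusted p = 0.252). The difference between the responses was -2.81 ± 0.56 (edgeR adjusted p = 0.0186), and -1.31 with adipocyte scaling (adjusted p = 0.0479).

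Ppargc1b was at 11, 12.6 and 21.5 CPM in adult controls and at 28.3, 35.8 and 31.7 CPM in burned adults, groups apart but not called (log2 1.08 ± 0.28 SE, edgeR adjusted p = 0.788). In aged mice it was at 10.4, 13.8 and 6.18 CPM in controls and at 6.29, 3.54 and 7.82 CPM after burn, which overlapped (log2 -0.78 ± 0.40 SE, edgeR adjusted p = 0.186). The responses differed by -1.87 ± 0.51 (edgeR adjusted p = 0.0425), and by -0.22 with adipocyte scaling (adjusted p = 0.755). Burned aged mice were lower than burned adults (log2 -2.44 ± 0.38 SE, edgeR adjusted p = 0.00314).

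The lineage regulators Prdm16 and Ebf2 showed no called response to burn at either age in the fits given here. Each was called lower in aged mice in 1 of 12 alternative fits, and in the difference of the responses in 1 of 18. Prdm16 (Entrez 70673, chr4:154316125-154636873) was at 18.8, 26.5 and 21.4 CPM in adult controls and 26.8, 22.3 and 29.2 CPM after burn (log2 0.22 ± 0.19 SE, edgeR adjusted p = 0.789). In aged mice it was at 25.7, 31.3 and 23.0 CPM in controls and at 15.5, 6.77 and 23.4 CPM after burn (log2 -0.81 ± 0.42 SE, edgeR adjusted p = 0.192). Every neighbouring pair in the order of its 4 group means overlapped. Ebf2 (Entrez 13592, chr14:67233292-67430918) was at 21.9, 36.6 and 24.2 CPM in adult controls and at 29.5, 35.2 and 27.7 CPM after burn (log2 0.15 ± 0.23 SE, edgeR adjusted p = 0.854). Aged controls were at 21.9, 32 and 19.1 CPM and burned aged mice at 13.8, 9.66 and 19.7 CPM (log2 -0.76 ± 0.31 SE, edgeR adjusted p = 0.128). Aged burn 2, the library with the lowest adipocyte sum, was the lowest of the burned aged libraries in both, as in 9 of the 10 genes (Dio2 was the exception). Both aged values turned above 0 with adipocyte scaling (0.27 for Prdm16 and 0.51 for Ebf2), and both adult values turned below it (-0.21 and -0.26). Opposite-strand genes share 109 exon bases with Prdm16 and 424 with Ebf2, and 10 with Elovl3.

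Counted over the 10 genes, the adult response was in 1 direction. All 10 fold changes were above 0 (45.1% of 14600 genes were), with a median log2 of 1.71 against -0.04 over all genes, and in 8 of the 10 the burned and control libraries did not overlap (6.77% of genes). Ucp1 and Dio2 passed the test, 2 of 10, where 0.0411% of genes did (6 genes, all higher). The 2 calls were lost on leaving out Adult control 2, Adult burn 1, Adult burn 2 or Adult burn 3, at adjusted p = 0.0918 to 0.145, although the Ucp1 log2 fold change stayed between 5.91 and 6.48 with any 1 library left out. Dio2 was lost also without Adult control 1 (adjusted p = 0.0509) and with adipocyte scaling (adjusted p = 0.247). Without Adult control 1 and Adult burn 1 together, neither was called (Ucp1 log2 5.85, edgeR adjusted p = 0.145).

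In aged mice members were called in both directions. Of 9 tested, Ucp1 and Dio2 rose, where 13.7% of 15132 genes did, and Ppargc1a, Cidea and Otop1 fell, where 3.03% did. The median log2 was -0.78 against -0.01 over all genes and -1.09 over the 16 adipocyte reference genes. Of the 9, burned and control libraries did not overlap in 2 that were higher (26.3% of genes) and 3 that were lower (24.3%), not far from the shares over all genes. Adipocyte scaling, which moved the median of all genes to 1.46, kept the rises of Ucp1 (7.07, edgeR adjusted p = 0.00551) and Dio2, where 25.8% of genes were called higher. It called 0 of the 3 falls, where 0.033% of genes were called lower. The calls of Dio2, Ppargc1a, Cidea and Otop1 were lost on leaving out any aged control or Aged burn 1, at adjusted p up to 0.157, and that of Ucp1 without Aged control 2 or 3 (0.0803 and 0.0709). They stayed without Aged burn 2, the library that stood apart in its markers.

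**Figure D2:**
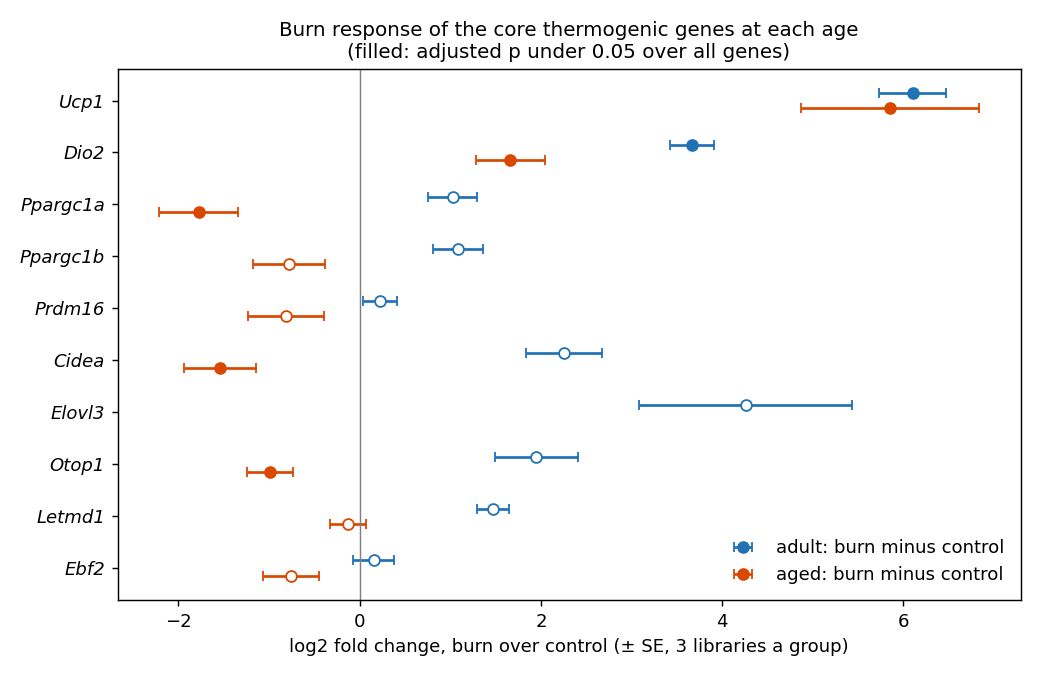
Burn response of each gene, as log2 fold change of burn over control with its SE on the horizontal axis, in adult (blue) and aged (orange) mice. Filled points passed an adjusted p of 0.05 in edgeR's test and open points did not, and Elovl3 in aged mice was not tested. All 10 adult values lie above 0, and in aged mice Ucp1 and Dio2 lie above 0 and 7 genes below.

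The test of the difference asked whether burn acted differently at the 2 ages. It called 6 of 10 genes, all with a lower response in the aged: Cidea, Otop1, Ppargc1a, Dio2, Ppargc1b and Letmd1. Lower calls made up 2.22% of 15553 genes and higher calls 9.64%. Ucp1, Elovl3 (log2 0.14 ± 0.95 SE, edgeR adjusted p = 0.927, resting on 3 reads in aged controls), Prdm16 (-1.04 ± 0.49, adjusted p = 0.16) and Ebf2 (-0.92 ± 0.41, adjusted p = 0.143) were not called. The 10 had a median of -1.74 against 0.05 over all genes. Adipocyte scaling moved the all-gene median to 2.04 and that of the 10 to 0.13, and it kept the calls of Cidea and Ppargc1a, where 0.0836% of genes were called lower and 58.0% higher. None of the 10 was called without Adult burn 1, Adult burn 2, Aged control 2 or Aged control 3, at adjusted p = 0.0534 to 0.11 for the 6, with 6 or 7 of the 10 at an unadjusted p below 0.05. Without Adult control 1, Adult burn 1 and Aged burn 2 together, 4 were called.

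**Figure D3:**
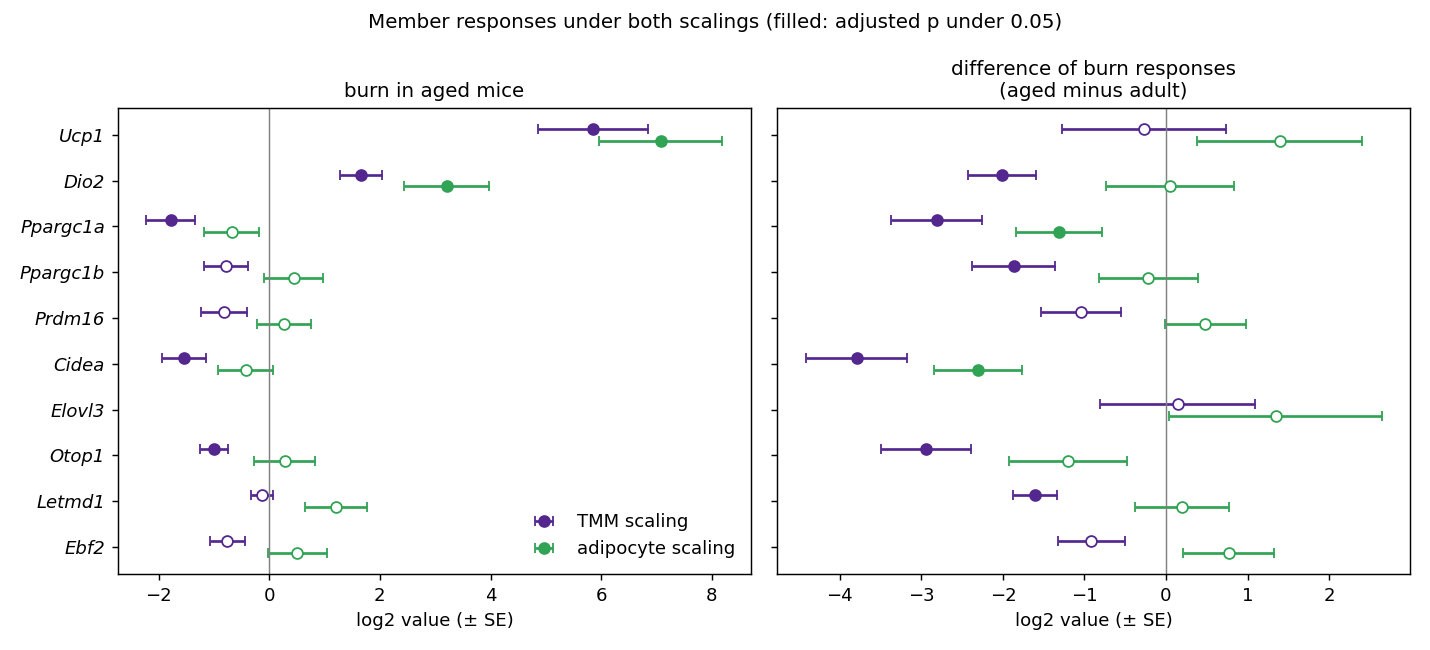
Burn response in aged mice and the difference of the responses (aged minus adult), as log2 values with SE on the horizontal axis, under TMM scaling (purple) and adipocyte scaling (green). Filled points passed an adjusted p of 0.05 in edgeR's test. Every value moved upward with adipocyte scaling, and in the difference only Cidea (-2.31) and Ppargc1a (-1.31) stayed called.

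Without a burn, aged fat held less Ucp1 and Dio2. Ucp1 and Dio2 (log2 -1.86 ± 0.31 SE, edgeR adjusted p = 0.0384) were lower in aged than in adult controls, 2 of 10 where 0.186% of genes were called lower. Cidea (log2 -2.01 ± 0.44 SE, adjusted p = 0.0697), Otop1 (-1.36 ± 0.39, adjusted p = 0.086) and Letmd1 (-0.42, adjusted p = 0.189) did not pass, though their libraries did not overlap. In all, 6 of the 10 lay entirely below the adult controls (15.6% of genes). Adipocyte scaling called none (Ucp1 -6.21, edgeR adjusted p = 0.0524), where 0.0129% of genes were called lower, with 6 of 10 at an unadjusted p below 0.05. The Ucp1 call was lost without Adult control 3 or any aged control (adjusted p = 0.0608 to 0.148), and that of Dio2 on leaving out those libraries or Adult control 1 (0.0613 to 0.19).

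More of the 10 genes were called between the ages after burn. Burned aged mice were lower than burned adults in 9 of the 10 genes by edgeR's test, where 11.1% of genes were called lower, and Prdm16 was the exception (log2 -0.78 ± 0.35 SE, adjusted p = 0.121). In the same 9 the libraries did not overlap (21.1% of genes). The median was -3.16 against 0.07 over all genes. Leaving out any 1 library left 8 to 10 called, and the call that came and went was mostly that of Ebf2 (log2 -1.10 ± 0.30 SE, adjusted p = 0.0217), which was lost without Adult burn 1, Adult burn 2, Aged burn 1 or Aged burn 2 (0.0587 to 0.0731). With adipocyte scaling 7 were called lower, where 1.05% of genes were, and Prdm16 (0.29) and Ebf2 (0.15) turned above 0. The summed level of the 10 genes was 1827 to 2250 CPM in burned adults, 209 to 352 CPM in adult controls, 133 to 196 CPM in aged controls and 70.7 to 137 CPM in burned aged mice.

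Mean levels per kilobase of exon, which allow for gene length, showed a change of rank. The length used was that of all annotated exons merged, and the annotation of the count step is not given. Ranks of genes at close levels depend on that length. In burned adults Ucp1 led at 662 CPM per kb, followed by Cidea at 440, Letmd1 at 32.7, Otop1 at 24.7 and Elovl3 at 23.7 CPM per kb. In adult controls Cidea led at 92.3 CPM per kb, with Letmd1 at 11.8 and Ucp1 at 9.61 CPM per kb. In aged controls Cidea (22.9 CPM per kb) and Letmd1 (8.76) led and Ucp1 was at 0.169 CPM per kb, above only Dio2 and Elovl3. In burned aged mice Ucp1 (10.3 CPM per kb), Letmd1 (8) and Cidea (7.86) overlapped, and without Aged burn 1 the Ucp1 mean was 6.05 CPM per kb, below Cidea (7.74) and Letmd1 (7.44). Dio2 was low throughout, from 0.115 CPM per kb in aged controls to 5.37 CPM per kb in burned adults.

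Over the 12 libraries the genes whose log2(CPM + 1) was most like that of Ucp1 were Cox7a1 (a cytochrome oxidase subunit, Pearson r = 0.98), Fabp3 (a fatty acid binding protein, 0.97), Acot11 (a thioesterase induced by cold, 0.97), Dio2 (0.95) and Cpt1b (the muscle-type carnitine palmitoyltransferase, 0.95). Libraries of a group share their treatment, so the coefficients mostly rank the 4 group levels. Among the members the likeness was 0.94 for Elovl3, 0.89 for Letmd1, 0.77 for Otop1, 0.76 for Cidea, 0.72 for Ppargc1b, 0.34 for Ppargc1a, 0.33 for Ebf2 and 0.11 for Prdm16.

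Other effectors and markers of thermogenic fat, 16 genes, had values like those of the members. In adults all 16 were above 0, with a median log2 of 1.87, and 2 rose (0.0411% of all genes did): Fabp3 (log2 5.69 ± 0.41 SE, edgeR adjusted p = 0.018) and the glycerol kinase gene Gk (2.49 ± 0.21, adjusted p = 0.0328). Without Adult control 1 and Adult burn 1 edgeR called 0 of the 16 there, with 16 at an unadjusted p below 0.05. In aged mice 3 of 16 rose, Fabp3 (4.20), Acot11 (2.06) and Cox7a1 (1.88), beside 13.7% of all genes, and 2 fell, the glycerol phosphate dehydrogenase gene Gpd2 (-0.89) and Clstn3 (-1.16), beside 3.03%. The list median was -0.48. Fabp3 was at 1.37, 0.903 and 2.47 CPM in adult controls and 93.6, 78.4 and 73.4 CPM in burned adults. In aged mice it was at 0.23, 0.0437 and 0.284 CPM in controls and 5.38, 2.6 and 2.35 CPM after burn, which again overlapped the untreated adults. Of the 16, 11 had a lower response in the aged (2.22% of all genes), led by Gpd2 (-2.25 ± 0.38 SE, edgeR adjusted p = 0.017) and the fatty acid transporter gene Slc27a2 (-5.70 ± 0.97, adjusted p = 0.017), and 15 were lower in burned aged than in burned adult mice (11.1% of all genes). Without the libraries that stood apart (Adult control 1, Adult burn 1 and Aged burn 2) these counts were 9 and 15. Between controls edgeR called none of the 16, with 8 at an unadjusted p below 0.05 and 7 called by DESeq2.

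The other transcriptional regulators of brown and beige fat had few burn responses called by edgeR with all libraries in. In adults edgeR called 0 of 27 (median 0.14, 4 at an unadjusted p below 0.05, 1 called by DESeq2). In aged mice Hlx, a homeobox activator of the beige program, rose (1.32 ± 0.33 SE, edgeR adjusted p = 0.0421) and Twist1, a repressor of Ppargc1a function, fell (-0.98 ± 0.21, adjusted p = 0.0283). These were 1 higher and 1 lower of 27, where 13.7% and 3.03% of all genes were called. Of the 27, 8 had an unadjusted p below 0.05 and DESeq2 called 7. Without Aged burn 2 edgeR called 1 higher and 6 lower, where 2283 and 982 of 15325 genes were. Ppara, the receptor for fatty acid oxidation genes, was the 1 of 28 that edgeR called with a different response (-2.88 ± 0.63, edgeR adjusted p = 0.0233). Over all genes 2.22% were called lower and 9.64% higher there, and of the 28, 13 had an unadjusted p below 0.05 and DESeq2 called 11. Ppara was not called without the 3 libraries that stood apart (-2.14, edgeR adjusted p = 0.0502). Between burned aged and burned adult mice 6 of 28 were called. Esrra (-1.01), a partner of Ppargc1a, Ppara (-3.09), the mitochondrial DNA factor gene Tfam (-0.63), Irf4 (-1.75) and Nfia (-1.39) were lower, beside 11.1% of all genes, and Hlx was higher (1.02), beside 15.2%. Without Adult burn 1 and Aged burn 2, 2 of the 6 were still called. For thyroid hormone conversion, transport and response beyond Dio2, edgeR called 0 of 8 tested genes in adults (0 at an unadjusted p below 0.05, 0 by DESeq2), 0 in aged mice (8 and 5) and 0 in the difference (6 and 5). Without Aged burn 2 edgeR called 3 of the 8 lower in aged mice, where 982 of 15325 genes were. The most abundant, Thrsp, a thyroid hormone responsive lipogenic gene, was at means of 1934 and 2874 CPM in adult and 607 and 188 CPM in aged mice, control and burned, and was lower in burned aged than in burned adult mice (-3.93 ± 0.69 SE, edgeR adjusted p = 0.00466).

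Beige cell markers were called lower or not at all between the ages, and in both directions in the test of the responses. In adults edgeR called 0 of 11 beige markers (median 0.24, 1 at an unadjusted p below 0.05, 0 by DESeq2), while in aged mice the transcription factor genes Tbx1 (-3.04 ± 0.63 SE, edgeR adjusted p = 0.0254) and Shox2 (-1.17 ± 0.17, adjusted p = 0.00928) fell. That was 2 of 11, where 3.03% of all genes fell. These 2 also had a lower response in the aged (2.22% of all genes), and Tmem26 and Tnfrsf9 a higher one (3.52 and 6.14, beside 9.64% of all genes). Tnfrsf9 was at 8.72 CPM in Adult control 1 and 11.2 CPM in Aged burn 2 and at 0.109 to 1.69 CPM in the other 10 libraries. Without the 3 libraries that stood apart, Tnfrsf9 was at 1.99 (edgeR adjusted p = 0.304), Tmem26 at 2.76 (adjusted p = 0.144), and 1 of the 4 was still called. Between controls the purine receptor gene P2rx5 was lower in the aged (-2.06, edgeR adjusted p = 0.0355), 1 of 11 where 0.186% of all genes were. In burned aged against burned adult mice 6 of the 11 were lower and none higher (11.1% and 15.2% of all genes): P2rx5 (-3.28), Tbx1 (-3.79), Shox2 (-1.27), the amino acid transporter gene Slc36a2 (-1.91), Hoxc9 (-1.31) and Hoxc8 (-1.19). Without Adult burn 1 and Aged burn 2, 4 of the 6 were still called. Of 6 classical brown markers tested in aged mice, 1 rose, Epsti1 (2.38 ± 0.60 SE, edgeR adjusted p = 0.0426), where 13.7% of all genes did. It rose beside the macrophage genes, of which 11 of 12 rose (median 3.50), and the part of other cells in these values was not tested.

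**Figure D4:**
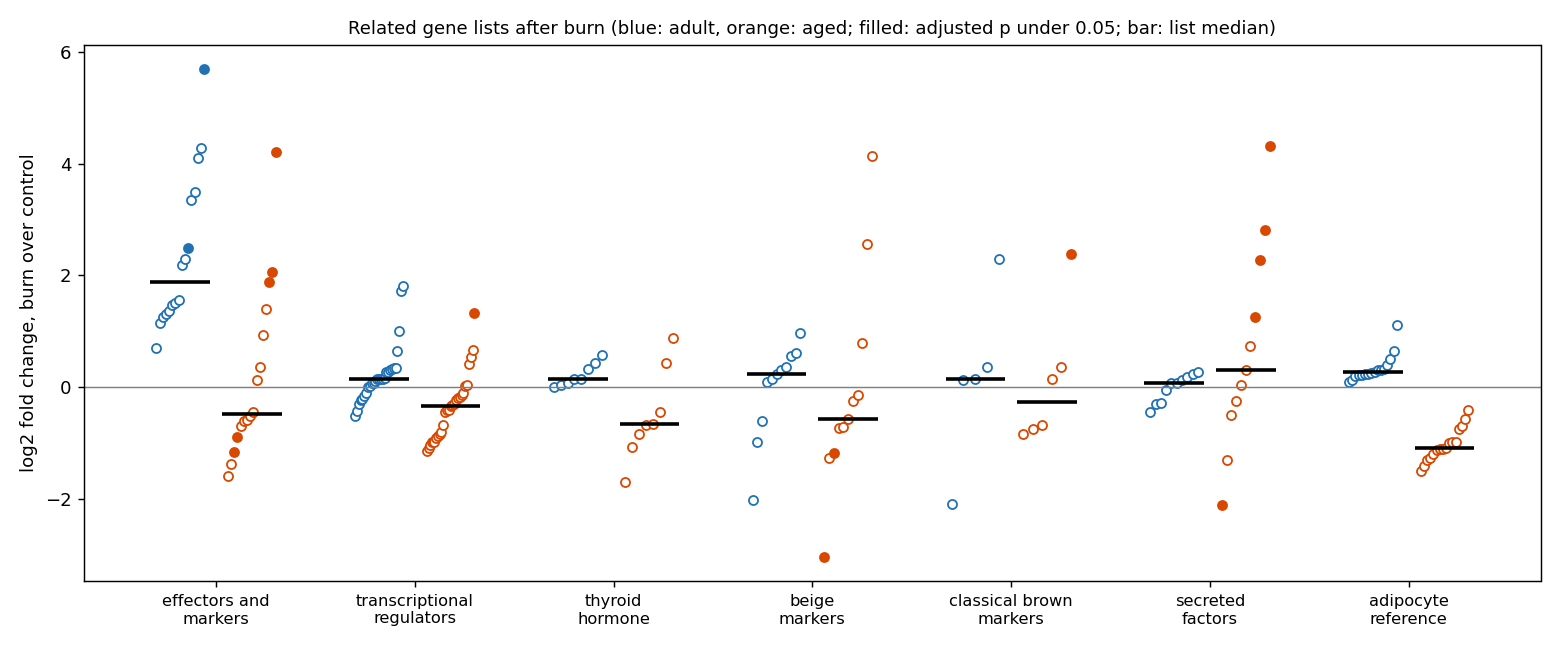
Burn response of every tested gene in 7 gene lists, as log2 fold change on the vertical axis, in adult (blue) and aged (orange) mice. Filled points passed an adjusted p of 0.05 in edgeR's test and bars are list medians. The 16 other thermogenic effectors have a median of 1.87 in adult and -0.48 in aged mice, and the 16 adipocyte reference genes 0.26 and -1.09.

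The uncoupling protein paralogs had other values. Ucp2, which is abundant in immune cells, was at means of 178 and 104 CPM in adult controls and burned adults (edgeR adjusted p = 0.788) and rose in aged mice from 96.6 to 624 CPM (log2 2.69 ± 0.39 SE, edgeR adjusted p = 0.00932). Macrophage genes rose in the same libraries, and the part of other cells in the Ucp2 values was not tested. Ucp3 was at 67.1 and 121 CPM in adult controls and burned adults and at 65.9 and 25.1 CPM in the aged, with neither difference called by edgeR with all libraries in. DESeq2 called both paralogs in aged mice, and without Aged burn 2 edgeR called Ucp3 lower there. Ucp3 was lower in burned aged than in burned adult mice (log2 -2.26 ± 0.49 SE, edgeR adjusted p = 0.00948). The 16 adipocyte reference genes, the base of the adipocyte scaling, were all above 0 in adults (median 0.26) and all below 0 in aged mice (median -1.09), with 0 called by edgeR in adults (1 at an unadjusted p below 0.05, 0 by DESeq2) and 0 in aged mice (5 and 8). Without Aged burn 2 edgeR called 6 of the 16 lower in aged mice, where 982 of 15325 genes were. In that fit 11 of the 16 had an unadjusted p below 0.05. Pparg and Aqp7 of this list are also on the regulator and beige lists.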

How the data were processed

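Per the labels' protocols, polyadenylated RNA was prepared with a directional library kit. Per the submitters' processing notes, FastQC, MultiQC, cutadapt, HISAT2 and featureCounts were used on mm10. Tool versions, gene annotation and strandedness of the count step are not given in the sources used. The authors deposited raw gene counts in a table for adult and a table for aged mice, and 25275 of 27179 Entrez identifiers were matched to symbols. Unmatched identifiers held 0.366% to 0.76% of counts. Libraries of each group differed beyond sampling noise (chi-square per degree of freedom at least 29.5).

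Tests used edgeR 4.0.16 under R 4.3.3 (filterByExpr, TMM, quasi-likelihood F test, Benjamini-Hochberg adjustment over all genes, threshold 0.05). Burn was tested within each age on 6 libraries, and the other comparisons on all 12 with 1 mean per group. SE is the absolute log2 fold change over the square root of F. Alternatives were RLE scaling, no low-count filter beyond 1 read, DESeq2 1.42.0, the replicate number as a block, a fit on all 12 libraries, adipocyte scaling and each library left out. Leaving out Adult control 1, Adult burn 1 and Aged burn 2 together, and ratios of pooled reads or levels per kilobase without 1 library, were choices made after seeing the data. The scripts were tested on simulated counts, into which known changes were planted. For burn in adults, 13 of 100 planted 2-fold changes were called, and 82 of 100 planted 4-fold ones. These values were 23 and 87 in aged mice and 1 and 56 in the difference of the responses. They were 23 and 83 between controls and 24 and 79 between burned mice. False calls were 2.83% (between burned mice) to 7.77% (adults) of calls. A gene not called may therefore still have changed 2-fold.

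The members, 15 other gene lists and tests were chosen with earlier results of these data known. Of other lists, called genes are named, or else the most abundant, and the 5 genes most like Ucp1. Exon lengths are from GENCODE M21. Intervals cover counting error only.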

Additional observations from a re-analysis of the deposited data

Results flagged for a closer look

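The burn response was lower in aged than in adult mice, by a test of the difference itself, in 6 genes. The differences (aged minus adult, log2, edgeR over all 12 libraries) were -3.79 for Cidea, -2.95 for Otop1, -2.81 for Ppargc1a, -2.01 for Dio2, -1.87 for Ppargc1b and -1.61 for Letmd1. Among them Dio2 rose at both ages and Letmd1 and Ppargc1b were called at neither, while Cidea, Otop1 and Ppargc1a were called lower in aged mice and were not called in adults. For these last 3, in that order, edgeR's unadjusted p was 0.00126, 0.00427 and 0.00716 for the adult rise. For the aged fall it was 0.00694, 0.00655 and 0.00568. A call at 1 age only therefore does not rank the 2 responses. With adipocyte scaling, Cidea and Ppargc1a stayed called and the other 4 did not, with Dio2 at 0.052 and Letmd1 at 0.20. None of the 6 was called on leaving out Adult burn 1, Adult burn 2, Aged control 2 or Aged control 3. The 16 adipocyte reference genes had a median difference of -1.44 in the same test, and the 12 macrophage genes 3.54.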

How the results depend on the processing

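Among the results for single members under all alternatives, 513 kept direction and call, 97 lost the call, 15 gained one and 23 changed sign. With 3 libraries a group, any 1 library moved the adjusted p of every comparison, and in aged controls Elovl3, Ucp1 and Dio2 rested on 1 read, 0 to 22 reads and 21 to 37 reads a library. The cause of the moves below was not tested, beyond fewer libraries where some were left out.

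DESeq2 called 63 genes for burn in adults (edgeR 6) and 5 members (2), 4869 genes in aged mice (2534), 3733 in the difference (1845, with 1500 higher and 345 lower, against 2302 and 1431) and 2149 between controls (66), with 5 members (2). The fit on all 12 libraries called 14 genes in adults. Adipocyte scaling called 1 member in adults, 2 in aged mice, 2 in the difference, 0 between controls (6 at an unadjusted p below 0.05) and 7 between burned mice. It turned these log2 values: Prdm16 -0.21 and Ebf2 -0.26 in adults; Ppargc1b 0.44, Prdm16 0.27, Otop1 0.28, Letmd1 1.21 and Ebf2 0.51 in aged mice; Ucp1 1.39, Dio2 0.052, Prdm16 0.48, Letmd1 0.20 and Ebf2 0.77 in the difference; Prdm16 -0.19 between controls; Prdm16 0.29 and Ebf2 0.15 between burned mice.

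Replicate numbers were not taken to pair the samples: correlations of same-numbered deviations were 0.015, -0.0016 and 0.234 in adults and -0.117, -0.211 and -0.0658 in aged mice, and not every sample correlated best with its own number. With 3 libraries a group, these correlations cannot exclude a pairing. With the replicate number as a block, 0 genes and 0 members were called in adults (455 and 8 at an unadjusted p below 0.05), 917 genes and 0 members in aged mice (5 members below 0.05), 413 genes and 4 members in the difference, 0 genes and 0 members between controls (3257 and 5), and 3060 genes and 9 members between burned mice. Elovl3 turned to -0.66 in the difference under the block.

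Leaving out 1 library gave 0 to 5 genes and 0 to 3 members in adults, 0 to 5743 and 0 to 7 in aged mice, 0 to 4039 and 0 to 8 in the difference, 0 to 2011 and 0 to 4 between controls, and 1840 to 4850 and 8 to 10 between burned mice. Where 0 genes were called, 231 to 1660 had an unadjusted p below 0.05 in adults, 4227 in aged mice (without Aged control 3), 4273 to 4561 in the difference and 2550 to 3634 between controls. Signs changed for Letmd1 in aged mice (range -0.24 to 0.033, the latter without Aged burn 2), for Elovl3 (-2.54 without Adult control 3, -0.55 without Aged burn 1, up to 0.68) and Ucp1 (-1.03 to 0.33, the latter without Aged control 3, and 0.054 without Aged burn 2) in the difference, and for Ebf2 between controls (-0.43 to 0.080, the latter without Adult control 2). Without the libraries that stood apart (chosen after seeing the data), 0 genes and 0 members were called in adults (278 and 8 at an unadjusted p below 0.05), 252 genes and 4 members in the difference, where Ucp1 was at 0.30, and 743 genes and 7 members between burned mice.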

Other observations

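Among secreted factors made by thermogenic fat, 4 of 11 tested rose after burn in the aged, where 13.7% of all genes rose and 3.03% fell: the stress cytokine gene Gdf15 (log2 4.32 ± 0.47 SE, edgeR adjusted p = 0.00569), Metrnl (2.82 ± 0.30, adjusted p = 0.00565), Slit2 (2.28 ± 0.29, adjusted p = 0.00743) and the phospholipid transfer protein gene Pltp (1.26 ± 0.24, adjusted p = 0.0214). Nrg4, a ligand released by brown fat, fell (-2.10 ± 0.48, edgeR adjusted p = 0.0337), from a mean of 123 CPM to 28.6 CPM. In adults edgeR called 0 of 10 (0 at an unadjusted p below 0.05, 0 by DESeq2), and mean Nrg4 was 88.3 CPM in controls and 107 CPM after burn. The same 5 genes passed the test of the difference, with Gdf15 at 4.11, Metrnl at 2.74, Slit2 at 2.72, Pltp at 1.17 and Nrg4 at -2.38, where 9.64% of all genes were called higher and 2.22% lower. Of the 5, 1 passed without Adult control 1, Adult burn 1 and Aged burn 2. Macrophage genes were higher in the same libraries, and their part in these values was not tested.

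Genes of sympathetic nerve and Schwann cells, the route of the classic trigger, had a list median of -0.33 in adults and -0.31 in aged mice. In adults edgeR called 0 of 7 (1 at an unadjusted p below 0.05, 1 by DESeq2). In aged mice 2 of 8 rose, where 13.7% of all genes did: the neuropeptide gene Npy (edgeR adjusted p = 0.0142), which was at means of 0.0288 CPM in controls and 5.84 CPM after burn, and the neurotrophin receptor gene Ngfr (log2 3.11 ± 0.63, adjusted p = 0.025).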
